A study of Mus musculus with 6 samples.

Results

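The 10 glycolytic enzyme genes described here are Hk2, Pfkl, Pfkm, Aldoa, Gapdh, Pgk1, Pgam2, Eno3, Pkm and Ldha. They were chosen by gene symbol from the expression tables of inguinal fat, which list 55573 genes. The symbols matched 11 entries, because 2 entries carry the name Aldoa. RNA-seq had been performed on inguinal fat, a subcutaneous white depot, with 1 library of total RNA per mouse from 3 mutant and 3 Wt mice. Mutant mice were homozygous for a global knock-in of THRA K283Q/K288R, which changes sumoylation sites of thyroid hormone receptor alpha in all cells. Wt mice carried the unchanged gene. All 6 mice were males of strain C57BL/6NTac, 3 months old, untreated and fed regular chow. Counts per gene cannot show the substitutions themselves, so they do not check the genotype labels.

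Glycolysis breaks glucose down to pyruvate and yields ATP and NADH. Lactate dehydrogenase then returns NADH to NAD+. Most steps can be catalysed by several isoenzymes from separate genes. Skeletal muscle relies on the muscle forms of phosphofructokinase (Pfkm), phosphoglycerate mutase (Pgam2) and enolase (Eno3), which are called muscle-biased below. The other 7 symbols are called general. This is a label only and does not mean that these genes are low in muscle, as Hk2 encodes a form of muscle and fat. In white fat, glycolysis also supplies glycerol 3-phosphate and acetyl-CoA for triglyceride synthesis. Gapdh served as the control transcript in the study's own expression panel.

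The values, called normalized values, are CPM divided by 1 more factor for each mouse. The libraries held 19607423 to 24228381 reads on genes, and 3 reads equal a value of 0.126 to 0.157. None of the 8 adipocyte markers that check the labelled tissue was at 0, and their summed value was 13952 to 19924 in Wt and 12047 to 18932 in mutant mice. Skeletal muscle markers were abundant as well, with summed values of 15067 to 32170 in Wt and 24226 to 38100 in mutant mice, and none of the 16 was at 0. Lymphocyte markers summed to 3.83 in mutant mouse 1 and to between 295 and 689 in the other 5 mice. Epithelial markers summed to 75.8 in Wt mouse 1 and to between 3.79 and 23.1 elsewhere. Of 6 mesothelial markers, 5 were higher in mutant mice past the FDR, beside 5.5% of all genes tested. The summed values of all 6 were 33.8 to 70.4 in mutant and 4.72 to 31.3 in Wt mice. Krt19, the marker not called, made up 28.5 of the 31.3 in Wt mouse 1. Whether these differences in composition take part in the values below was not tested. In bulk tissue, fewer cells of a type and less RNA per cell cannot be told apart.

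No difference between the genotypes passed the threshold for any of the 10 genes in their main entries. Their mutant means were higher for 8 and lower for 2, the values of the groups overlapped for all 10, and none had an unadjusted p under 0.05. The log2 fold changes (mutant minus Wt) ran from -0.15 for Pfkl to 0.41 for Gapdh. The only entry past the FDR was the minor upstream entry named Aldoa, so that 1 of 11 entries was called, beside 8.11% of the 16868 genes tested (1368 genes). These comprise 928 genes (5.5%) with higher and 440 (2.61%) with lower values in the mutants. With scaling to library size alone the split was 1019 against 265. Differences were tested on log2(value + 0.5) with limma (trend option), and p-values were adjusted over all genes tested by the Benjamini-Hochberg method. With 3 mice against 3, an exact permutation test cannot give a p below 0.1. The limma p-values set each difference against the spread between these mice, which limma moderates with that of the other genes tested. The median log2 fold change was 0.28 for the muscle-biased genes, 0.19 for the general entries with or without the upstream Aldoa entry, and -0.05 for all genes tested. When Wt mouse 3 was left out, the medians were -0.06 for the muscle-biased genes and 0.03 for the general entries.

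**Figure D1:**
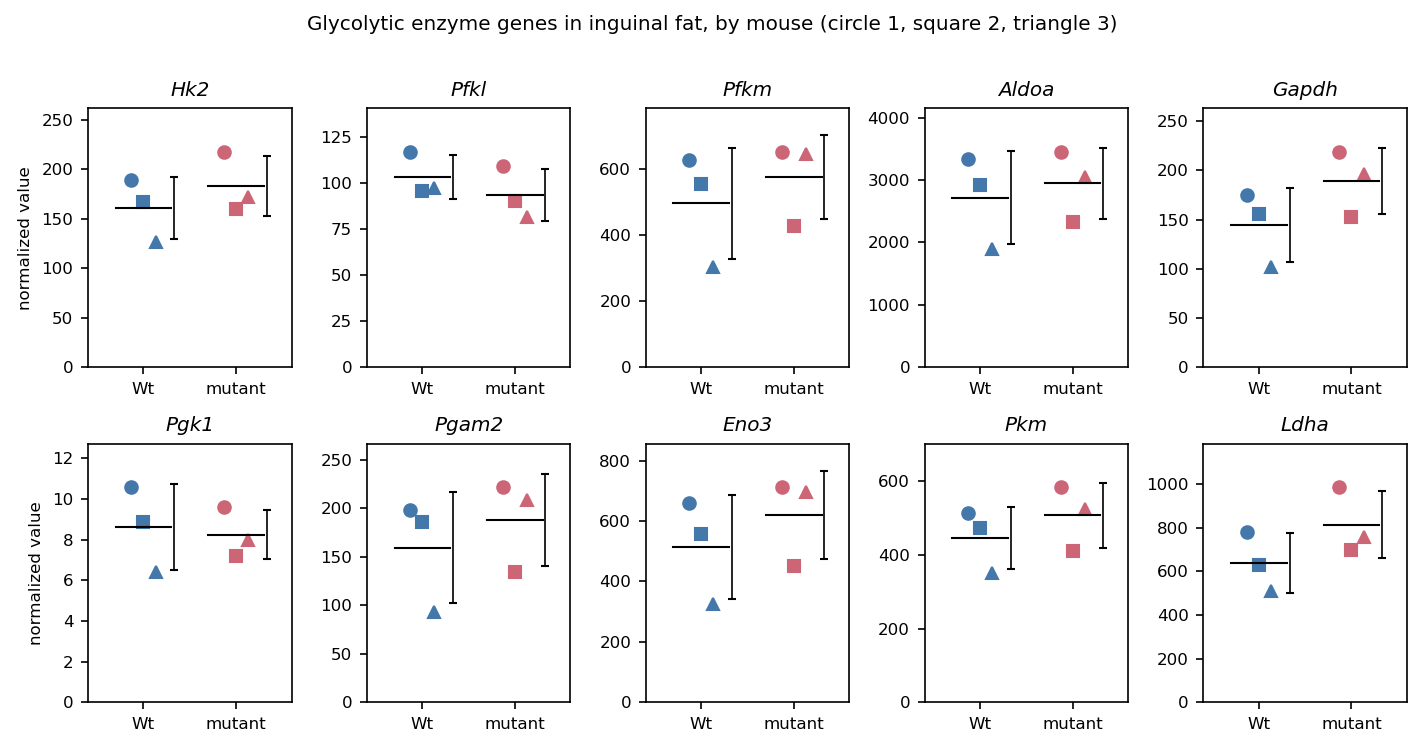
Normalized value of each of the 10 genes in each mouse (y axis from 0), with circles, squares and triangles for mice 1, 2 and 3, a line at the group mean and a bar of 1 SD (n = 3 per genotype). Wt mouse 3 was the lowest of all 6 mice for 9 of the 10 genes, and the groups overlapped in every panel. The share of all genes tested that were lowest in Wt mouse 3 is not given here.

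The levels of the 10 genes could be ordered after division by the merged exon length of each gene. On this scale of normalized value per kilobase, Aldoa led with 974 ± 207 (SD over the 6 mice), followed by Eno3 with 326 ± 88.6. Ldha had 219 ± 48.6 and Pgam2 207 ± 59. These neighbours changed places between mice, since Ldha was above Pgam2 in 3 of 6 mice, whereas each other neighbour kept its place in 6 of 6 mice. Pfkm (161 ± 42.2), Pkm (95.1 ± 16.8), Gapdh (40.4 ± 9.82), Hk2 (28.8 ± 5.05), Pfkl (14.7 ± 1.94) and Pgk1 (3.76 ± 0.689) followed in that order. The ranges over the mice of adjacent genes overlapped for Eno3 and Ldha, Ldha and Pgam2, Pgam2 and Pfkm, Pfkm and Pkm, and Gapdh and Hk2. Merged exons join the exons of all annotated transcripts of a gene, 4133 bases for Gapdh. Their length can exceed that of the transcripts expressed, which was not measured, so the per-length levels and ranks are uncertain. The order depends on the division, as merged exon lengths ran from 840 bases for Pgam2 to 6675 for Pfkl. Without it, the mean value of Ldha (726) was above that of Eno3 (567). Likewise Pkm (476) was then above Pgam2 (174), and Hk2 (172) above Gapdh (167). The 10 genes together made up 0.423% to 0.651% of all normalized values in Wt and 0.531% to 0.691% in mutant mice. Aldoa alone accounted for 49.8% to 50.8% of the values of the 10 in Wt and for 47.9% to 48.2% in mutant mice, so that its share was lower in each mutant than in each Wt mouse. That share was not tested.

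Some of these genes share sequence with other genes. Of all 50-base stretches in annotated Pgk1 transcripts, 53.9% also occur in transcripts of other annotated genes, and its 3 close copies had summed values of at most 0.0468 in any mouse. For Gapdh 25.1% of stretches were shared (1155 of 4598), and its 89 close copies summed to 16.5 to 25.7 per mouse. The copy Gm7336 alone shared 1131 of these stretches. The stretches are pooled over all annotated transcripts of a gene, so a single transcript can share far more of its length than these percentages. Pkm shared 25.8%, Ldha 9.26%, Pfkm 8.83%, Aldoa 6.43% and Pfkl 0.0298%, while Hk2, Pgam2 and Eno3 shared none. Levels of Pgk1, Gapdh and Pkm are therefore uncertain, because reads from a shared stretch cannot be placed from sequence alone. The part of this sharing in their levels was not tested.

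Hexokinase commits glucose to the cell by phosphorylating it, and Hk2 (ENSMUSG00000000628, chr6:82725025-82774454, minus strand, GRCm38) encodes the insulin-responsive form of muscle and fat. Its normalized values were 189, 167 and 127 in Wt mice 1 to 3 and 218, 160 and 172 in mutant mice 1 to 3. Mutant mice 2 and 3 lay among the Wt mice. The mutant values of Hk2 differed from the Wt values by 0.19 ± 0.18 (SE) on the log2 scale, with a 95% confidence interval of -0.24 to 0.63 and an adjusted p of 0.532. It was 0.03 without Wt mouse 3 and 0.06 without mutant mouse 1.

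Phosphofructokinase catalyses the main regulated step. Its liver form Pfkl (ENSMUSG00000020277, chr10:77986947-78010083, minus strand) had values of 117, 95.7 and 97 in Wt and of 109, 90.1 and 81.5 in mutant mice. Mutant mice 2 and 3 were below every Wt mouse, and Pfkl was the only one of the 10 genes whose lowest value lay in a mutant mouse. Its log2 fold change was -0.15 ± 0.14, with an interval of -0.48 to 0.18 and an adjusted p of 0.524, and it ran from -0.26 to -0.05 when single mice were left out. Pfkm (ENSMUSG00000033065, chr15:98092589-98132451, plus strand) had values of 628, 557 and 305 in Wt and of 654, 429 and 646 in mutant mice. Wt mouse 3 and mutant mouse 2 were below the other mice of both groups. The log2 fold change of Pfkm was 0.25 ± 0.31 (interval -0.49 to 1.0, adjusted p = 0.633), and without Wt mouse 3 it was -0.06.

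Aldolase A (Aldoa, ENSMUSG00000030695, chr7:126795234-126800751, minus strand) splits fructose 1,6-bisphosphate into triose phosphates. It had the highest values of the 10 genes, with 3337, 2924 and 1898 in Wt and 3456, 2334 and 3056 in mutant mice. The mutant values lay within or just above the Wt range. Aldoa had a log2 fold change of 0.14 ± 0.30 (interval -0.59 to 0.86, adjusted p = 0.798), and -0.10 without Wt mouse 3.

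The other entry named Aldoa (ENSMUSG00000114515, chr7:126800790-126809108, minus strand) lies upstream of the main entry, with its 3′ end 39 bases from the 5′ end of the main entry. It had values of 0.587, 0.681 and 0.252 in Wt and 3.51, 1.97 and 3.28 in mutant mice, which rest on 14, 14 and 6 reads in Wt and 67, 44 and 70 reads in mutant mice. All 3 mutant mice were above all 3 Wt mice, a pattern seen, in either direction, for 30.6% of the genes tested. The ratio of the group means was 5.76, and the log2 fold change with the pseudocount was 1.76 ± 0.27 (interval 1.12 to 2.40, adjusted p = 0.0128). Without mutant mouse 3 the adjusted p was 0.0515 and the log2 fold change 1.67. The entry amounted to 0.0133% to 0.107% of the main Aldoa entry. It lies within the span of Fam57b (ENSMUSG00000058966, chr7:126797668-126830219), which runs on the opposite strand, shares no exonic base with the entry and was looked at only after these values were seen. Fam57b had values of 25.1, 19.0 and 16.4 in Wt and 77.8, 55.1 and 64.2 in mutant mice, and it rose by 1.69 ± 0.19 on the log2 scale (adjusted p = 0.00476). The upstream entry amounted to 1.54% to 3.58% of Fam57b in Wt and to 3.58% to 5.1% in mutant mice. Of the 50-base stretches of the upstream entry, 0 occur in annotated transcripts of other genes. Whether strand was used in counting is not given in the sources used here, and without strand, unspliced reads of Fam57b cannot be told apart from reads of the entry. The part of such reads in its values was not tested.

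Glyceraldehyde 3-phosphate dehydrogenase (Gapdh, ENSMUSG00000057666, chr6:125161715-125166467, minus strand) produces the NADH of the pathway. Gapdh had values of 175, 156 and 102 in Wt and 219, 153 and 196 in mutant mice. Mutant mice 1 and 3 were above every Wt mouse, and mutant mouse 2 was not. Its mutant mean was 1.31 times the Wt mean, and its log2 fold change of 0.41 ± 0.23 had an interval of -0.14 to 0.97 and an adjusted p of 0.327. This was the highest log2 fold change among the main entries, and it did not pass the threshold. Without Wt mouse 3 it was 0.18. Within each group Gapdh varied by an SD of 0.41 (Wt) and 0.26 (mutant) on the log2 scale. The genes nearest to its profile over the 6 mice were Rilpl1, Fzd7 and Vdac1, with root mean square differences of 0.055, 0.064 and 0.064 in log2 values centred on each gene's mean. Iffo1, on the opposite strand, shares 68 exonic bases with Gapdh and had a mean value of 39.0, against 167 for Gapdh.

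Phosphoglycerate kinase 1 (Pgk1, ENSMUSG00000062070, chrX:106187100-106203699, plus strand) forms the first ATP of the pathway. Pgk1 had values of 10.6, 8.85 and 6.39 in Wt and 9.59, 7.18 and 8.0 in mutant mice, from 152 to 252 reads per mouse. All mutant values lay inside the Wt range. Pgk1 had a log2 fold change of -0.04 ± 0.21 (interval -0.54 to 0.46, adjusted p = 0.919), and its sign turned without Wt mouse 1 (0.12) or mutant mouse 2 (0.05).

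The next steps belong to the other muscle-biased genes. Phosphoglycerate mutase 2 (Pgam2, ENSMUSG00000020475, chr11:5801640-5803733, minus strand) moves the phosphate of 3-phosphoglycerate. Pgam2 had values of 198, 186 and 93.5 in Wt and 222, 134 and 208 in mutant mice. Beta-enolase (Eno3, ENSMUSG00000060600, chr11:70657202-70662513, plus strand) forms phosphoenolpyruvate. Eno3 had values of 660, 556 and 325 in Wt and 713, 452 and 695 in mutant mice. Both genes were low in the same mice as Pfkm, Wt mouse 3 and mutant mouse 2. The log2 fold change was 0.28 ± 0.33 (interval -0.51 to 1.08, adjusted p = 0.619) for Pgam2 and 0.30 ± 0.31 (interval -0.44 to 1.04, adjusted p = 0.564) for Eno3. Without Wt mouse 3 these were -0.06 and 0.00.

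The sequences before the start sites of Pgam2 and Eno3 are shown because these genes moved together over the mice and RefSeq lists 1 start site for each. They are the 250 bases before the RefSeq start, 5′ to 3′ on the gene's strand, from GRCm38.p6 (chr11:5803797-5804046, minus strand, for Pgam2 and chr11:70656926-70657175, plus strand, for Eno3). Capitals mark matches to the E-box letters CANNTG, which read the same on both strands.
Pgam2: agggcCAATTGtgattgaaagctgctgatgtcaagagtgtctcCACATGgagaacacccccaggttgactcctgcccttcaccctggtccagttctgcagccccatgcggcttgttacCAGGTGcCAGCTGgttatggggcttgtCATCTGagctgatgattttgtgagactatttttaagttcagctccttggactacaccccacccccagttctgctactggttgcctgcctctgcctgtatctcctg
Eno3: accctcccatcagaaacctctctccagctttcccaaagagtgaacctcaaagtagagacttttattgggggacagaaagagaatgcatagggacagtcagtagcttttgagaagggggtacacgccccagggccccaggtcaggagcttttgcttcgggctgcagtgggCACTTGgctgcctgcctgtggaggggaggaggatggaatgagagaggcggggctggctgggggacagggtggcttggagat
Pgam2 held 5 matches and Eno3 1, while 66.2% of the 32851 promoters in the same RefSeq table held at least 1 in a window of 250 bases, with a mean of 1.16. RefSeq lists 17 start sites for the 10 genes, with 0 to 5 matches each. The windows of Hk2 and Gapdh held none and that of Pfkl held 3, while those of Pfkm held 0 to 3 and those of Pkm 0 to 1. A match to the MEF2 motif on either strand was found before Pgam2 alone among the 17, and 1.69% of all promoters held one. The letters ACGTG, searched on both strands and held by 16.6% of all promoters, occurred in neither sequence shown, and 1 to 5 times in windows of Hk2, Pfkm, Aldoa, Pgk1, Pkm and Ldha. AGGTCA, held by 14% of all promoters, occurred 1 time in Eno3 and not in Pgam2, and also in windows of Aldoa, Pkm and Pfkm. These matches are descriptions of letters and say nothing of binding.

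Pyruvate kinase (Pkm, ENSMUSG00000032294, chr9:59656368-59679375, plus strand) forms pyruvate and ATP. Pkm had values of 512, 472 and 351 in Wt and 584, 411 and 525 in mutant mice. Mutant mice 1 and 3 were above every Wt mouse. The log2 fold change was 0.19 ± 0.19 (interval -0.28 to 0.66, adjusted p = 0.565), and it was 0.03 without Wt mouse 3 and 0.08 without mutant mouse 1. Gm49759, on the same strand, shares 767 exonic bases with Pkm and had a mean of 14.4, against 476 for Pkm. Lactate dehydrogenase A (Ldha, ENSMUSG00000063229, chr7:46841475-46855627, plus strand) reduces pyruvate to lactate. Ldha had values of 779, 630 and 508 in Wt and 987, 698 and 756 in mutant mice. Only mutant mouse 1 was above every Wt mouse. The log2 fold change of 0.35 ± 0.21 had an interval of -0.15 to 0.85 and an adjusted p of 0.348, and it ran from 0.20 to 0.51 when single mice were left out.

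**Figure D2:**
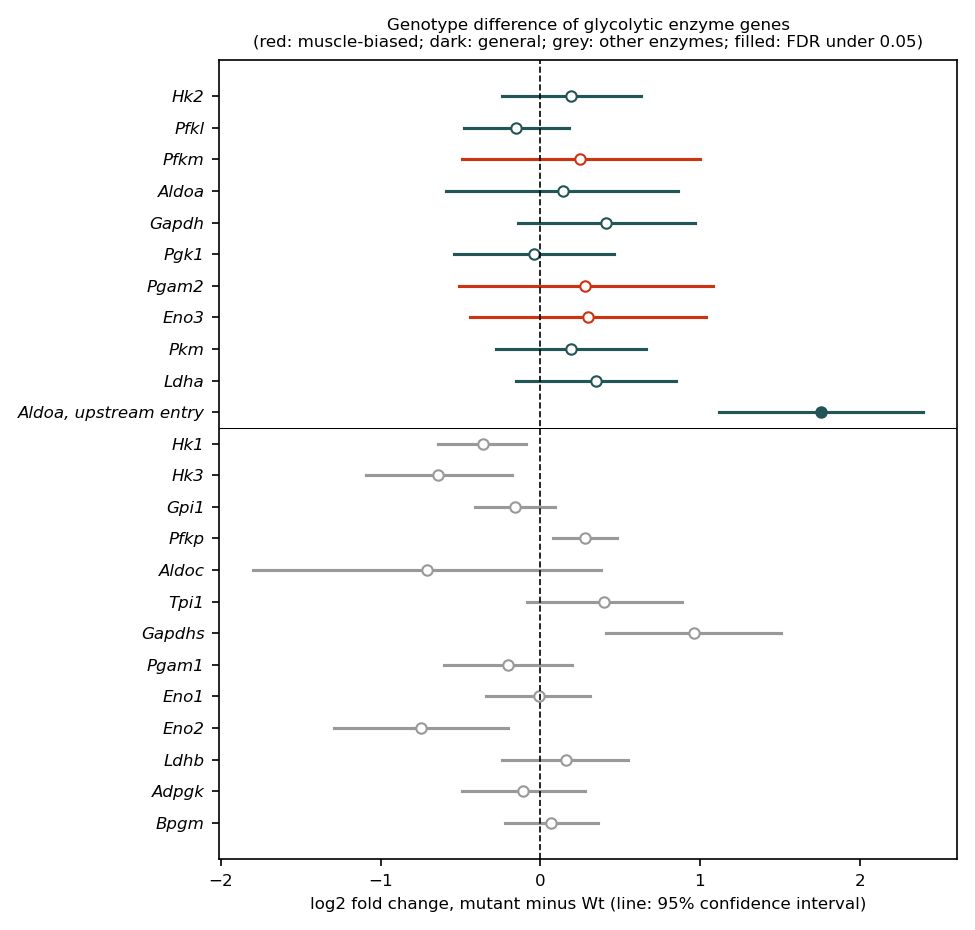
Log2 fold change (mutant minus Wt, x axis) with its 95% confidence interval from limma for the 11 entries and, below the line, the 13 other glycolytic enzyme genes tested. The 10 main entries have intervals that include 0, and only the upstream Aldoa entry (1.76) is past the FDR.

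The muscle-biased genes varied more within each genotype than the general genes did. The highest value over the 6 mice was 2.14 to 2.38 times the lowest for Pfkm, Pgam2 and Eno3 and 1.44 to 2.16 times the lowest for the 7 general genes. The SD within Wt mice was 0.53 to 0.60 on the log2 scale for the muscle-biased and 0.16 to 0.43 for the general genes. Within mutant mice it was 0.35 to 0.39 and 0.20 to 0.29. The ranges of both SDs did not overlap between these sets of 3 and 7 genes. Among the 10 genes, mutant mouse 2 was the lowest mutant mouse for 9 and mutant mouse 1 the highest of all mice for 8. Pfkl was the exception in the former count, and Pfkl and Pgk1, both highest in Wt mouse 1, in the latter. The same counts over all genes tested are not given here, so these are not shown to be particular to the 10 genes.

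Many skeletal muscle transcripts were also lowest in Wt mouse 3. Ckm, muscle creatine kinase, had normalized values of 3527, 2935 and 1564 in Wt and 3445, 2076 and 3282 in mutant mice. Pvalb, the calcium buffer parvalbumin of fast fibres, had values of 1064, 936 and 500 in Wt and 1098, 677 and 1086 in mutant mice. Myh4, the fast IIb myosin heavy chain, had values of 11320, 9722 and 5081 in Wt and 8855, 5278 and 9267 in mutant mice. Acta1, skeletal alpha-actin, had values of 4108, 3806 and 1955 in Wt and 5948, 3946 and 5867 in mutant mice. These 4 genes were lowest in Wt mouse 3, and within the mutant group in mutant mouse 2. They differed in their highest mouse, which was Wt mouse 1 for Ckm and Myh4 and mutant mouse 1 for Pvalb and Acta1. Of the 16 muscle markers, 10 were lowest in Wt mouse 3. The other 6 (Myh1, Myh2, Myh7, Myl2, Tnni1 and Mb) were lowest in Wt mouse 1. They include the slow-fibre myosin Myh7 with values of 2.47, 150 and 35.8 in Wt and 444, 303 and 422 in mutant mice. Counts of the lowest mouse over all genes tested are not given here. The log2 fold changes of Ckm (0.18 ± 0.38, adjusted p = 0.793), Pvalb (0.23 ± 0.34, adjusted p = 0.692), Myh4 (-0.12 ± 0.49, adjusted p = 0.891) and Acta1 (0.72 ± 0.39, adjusted p = 0.308) did not pass. Beside 8.11% of all genes tested, 1 of the 16 muscle markers was past the FDR. This was Myh1, the IIx myosin heavy chain, which rose by 4.31 ± 0.75 on the log2 scale (adjusted p = 0.0208), from 31.1, 279 and 166 in Wt to 2405, 1986 and 2385 in mutant mice. Its call was lost in turn without Wt mouse 3, mutant mouse 2 or mutant mouse 3. The median log2 fold change of the 16 markers was 0.71, and in 7 of them each mutant mouse was above each Wt mouse, beside 14.9% of all genes tested.

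Expressed as a percentage of Ckm in the same mouse, the muscle-biased genes varied little. Pfkm was 17.8%, 19.0% and 19.5% of Ckm in Wt and 19.0%, 20.7% and 19.7% in mutant mice. Pgam2 was 5.62%, 6.33% and 5.98% in Wt and 6.45%, 6.47% and 6.34% in mutant mice. Eno3 was 18.7%, 19.0% and 20.8% in Wt and 20.7%, 21.7% and 21.2% in mutant mice. The highest of these ratios was 1.15 to 1.16 times the lowest for all 3 genes, while the same figure was 1.3 for Aldoa, 1.48 for Gapdh and between 1.55 and 2.5 for the other general genes. Pgam2 relative to Ckm was higher in each mutant than in each Wt mouse, by a margin of 6.34% against 6.33%, and the ratios of Pfkm and Eno3 overlapped.

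Likeness of profile was measured as well. The root mean square difference from Ckm, in log2 values centred over the 6 mice, was 0.065 for Pfkm, 0.073 for Pgam2 and 0.080 for Eno3. Of all genes tested, 0.0296%, 0.0474% and 0.0711% were nearer to Ckm than these. Among the general genes the differences were 0.137 for Aldoa, 0.189 for Gapdh, 0.211 for Pkm, 0.245 for Pgk1, 0.248 for Hk2, 0.264 for Ldha and 0.417 for Pfkl. For Pfkl, 28.1% of the genes tested were nearer to Ckm, and for the other 6 at most 1.74%. The genes nearest to Pgam2 were Atp2a1, the fast-fibre calcium pump, Jph2, a junctophilin of the muscle triad, and Pvalb, with differences of 0.024, 0.040 and 0.045. The genes nearest to Eno3 were Pfkm, Pvalb and Plpp7, with differences of 0.040, 0.053 and 0.059. These figures describe 6 libraries that share their scaling, and no test was made of them. The part of muscle transcripts in the values of the glycolytic genes was not tested.

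**Figure D3:**
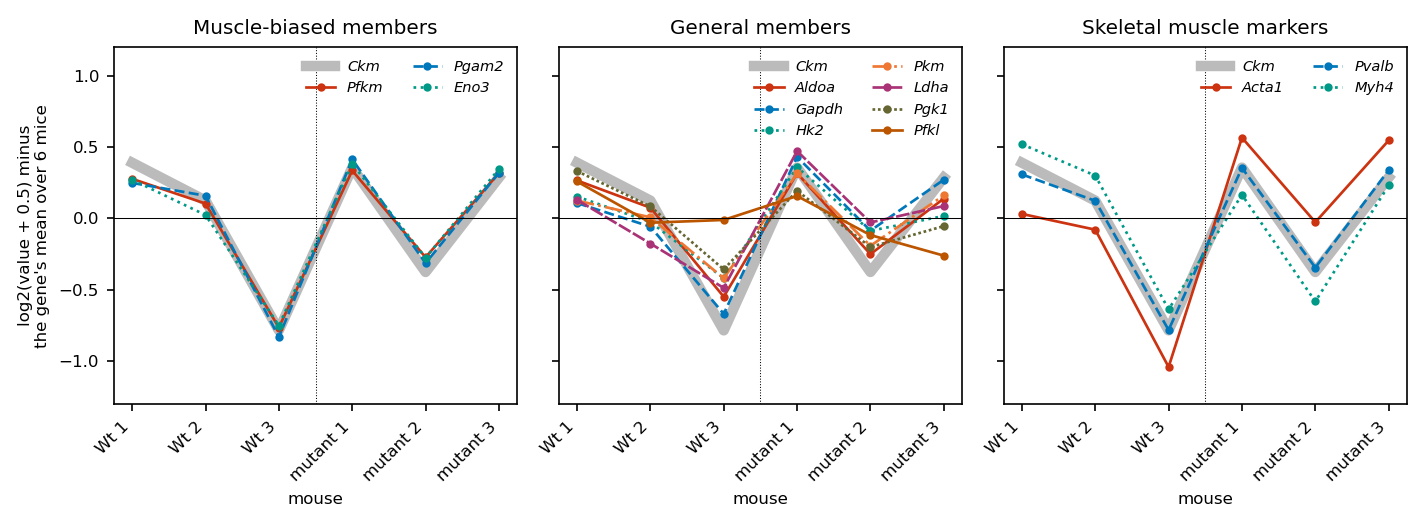
Log2(value + 0.5) minus the gene's mean over the 6 mice (y axis) for each mouse (x axis), for the muscle-biased genes, the general genes and muscle markers, with Ckm as the broad grey line in each panel. Pfkm, Pgam2 and Eno3 lie on the Ckm line (differences of 0.065 to 0.080), and Pfkl departs from it (0.417).

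The muscle forms were also the main transcripts of their steps. Shares were taken per mouse from the normalized values per length, and are given as the range in each group. Pfkm made up 80.5% to 88.7% of the phosphofructokinase genes in Wt and 85.1% to 90.4% in mutant mice. Pgam2 made up 98.2% to 99.2% of the phosphoglycerate mutases in Wt and 99.0% to 99.3% in mutant mice. Eno3 made up 92.0% to 95.6% of the enolases in Wt and 94.8% to 96.4% in mutant mice. In each case the lowest share was that of Wt mouse 3, and the genotypes overlapped. Without division by exon length, the mean shares were 69.8% and 72.5% for Pfkm, 97.2% and 98.1% for Pgam2, and 84.7% and 87.9% for Eno3 in Wt and mutant mice. The division raised the shares of the muscle forms, because their merged exons are shorter than those of their partners. These are 3340 bases for Pfkm against 6675 for Pfkl and 13401 for Pfkp. They are 1739 for Eno3 against 5379 for Eno1, and 840 for Pgam2 against 1982 for Pgam1. Such lengths join all annotated transcripts of a gene and can differ from those of the transcripts expressed, so the shares per length depend on the annotation. The general partners of these steps had lower values. Pgam1, of which 36.2% of stretches are shared with other genes, had values of 3.28 to 4.90 over the 6 mice, and Eno1, with 26% shared, had values of 69.8 to 91.2. Shares against these partners are uncertain for that reason.

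Among the general genes, Aldoa made up 99.9% of the aldolase genes on average in both groups. Ldha made up 88.2%, 86.6% and 86.3% of Ldha and Ldhb in Wt and 88.4%, 88.1% and 89.2% in mutant mice, and the groups overlapped.

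**Figure D4:**
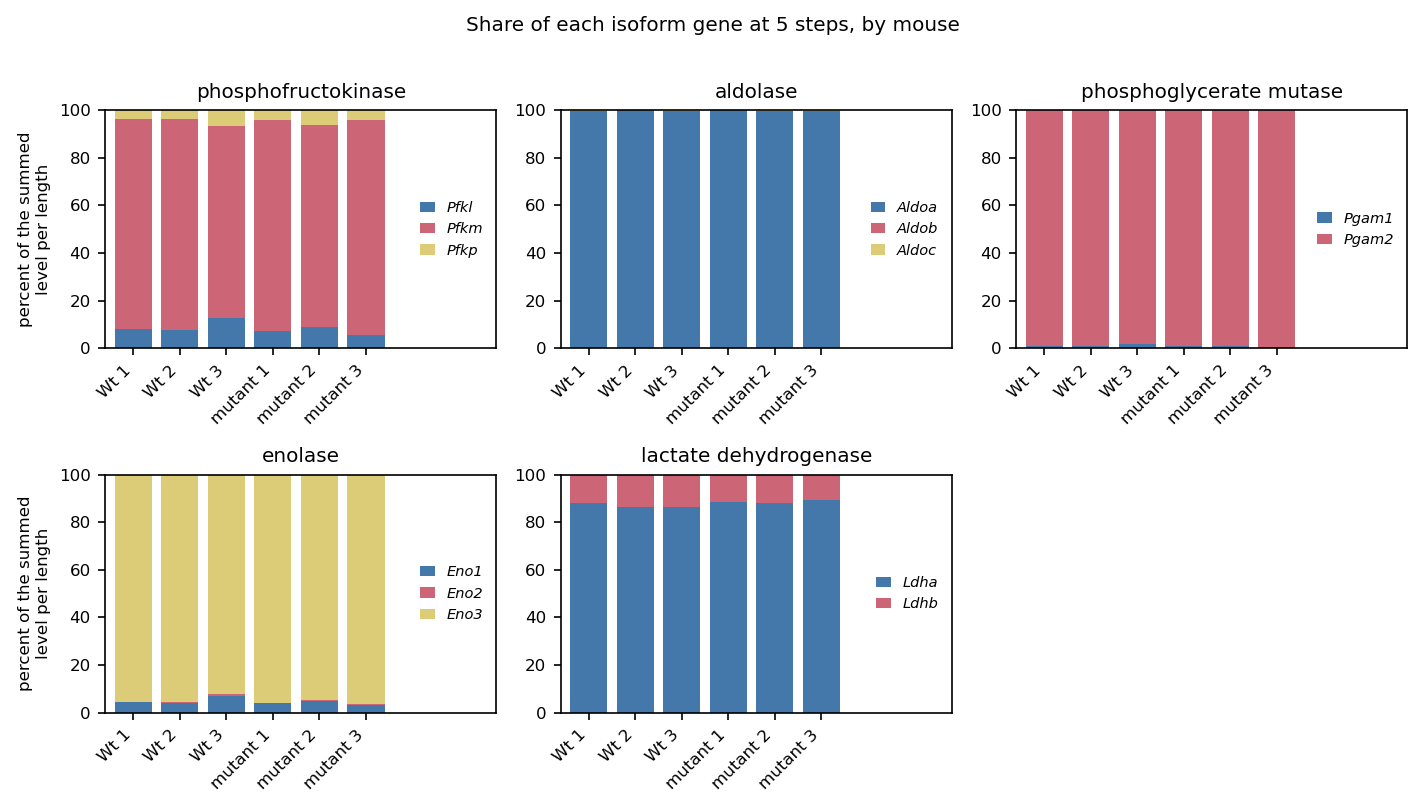
Stacked bars of the share of each isoform gene in the summed level per length of its step (y axis, percent), 1 bar per mouse. Pgam2, Eno3, Pfkm, Aldoa and Ldha are the largest share of their step in all 6 mice, from 80.5% for Pfkm in Wt mouse 3 upwards. Without division by exon length, the mean share of Pfkm was 69.8% in Wt mice.

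The rest of the pathway was read from lists of related genes. Of 18 other glycolytic enzyme genes, 13 could be tested and none was past the FDR in either direction by limma, with a median log2 fold change of -0.11. The most abundant were Tpi1, triose phosphate isomerase, and Gpi1, glucose 6-phosphate isomerase. Tpi1 had values of 459, 374 and 291 in Wt and 588, 431 and 457 in mutant mice (log2 fold change 0.40 ± 0.20, adjusted p = 0.279). Gpi1 had values of 316, 297 and 271 in Wt and 282, 238 and 270 in mutant mice (-0.16 ± 0.11, adjusted p = 0.393). Both sets of values overlapped between the groups.

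Of 16 genes for regulators and transport, 1 rose and none fell past the FDR, with a median of 0.10. Slc16a1, the monocarboxylate transporter MCT1 that carries lactate and pyruvate, had values of 42.9, 38.3 and 39.1 in Wt and 75.8, 59.0 and 56.1 in mutant mice. All mutant mice were above all Wt mice, and Slc16a1 rose by 0.65 ± 0.13 on the log2 scale (adjusted p = 0.0324). Of 5 genes tested for gluconeogenesis and glyceroneogenesis, 1 fell, with a median of -0.17. G6pc3, the ubiquitous glucose 6-phosphatase catalytic subunit, had values of 40.1, 39.7 and 39.0 in Wt and 33.0, 30 and 30.9 in mutant mice. Its groups did not overlap, and G6pc3 fell by 0.33 ± 0.08 on the log2 scale (adjusted p = 0.0472).

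Of 14 glycogen genes, 1 rose, with a median of 0.09. Ppp1r3c, a glycogen-targeting subunit of protein phosphatase 1, had values of 48.0, 45.4 and 37.7 in Wt and 149, 108 and 133 in mutant mice. No value was shared between the groups, and Ppp1r3c rose by 1.55 ± 0.15 on the log2 scale (adjusted p = 0.00284). Of 9 targets of HIF-1, the hypoxia-inducible factor, that are not glycolytic enzymes, 1 rose, with a median of -0.05. Egln3, an oxygen-dependent prolyl hydroxylase, had values of 4.15, 4.72 and 5.17 in Wt and 8.33, 6.82 and 8.19 in mutant mice. All its mutant values were above the Wt values, and Egln3 rose by 0.68 ± 0.15 on the log2 scale (adjusted p = 0.0414). In all, 4 of the 57 genes tested in these lists were called, or 7.02%, beside 8.11% of all genes tested. When each mouse was left out in turn, Ppp1r3c remained past the FDR in 6 of 6 fits (adjusted p of 0.00415 to 0.019), Slc16a1 in 2 (0.0311 to 0.126), and G6pc3 (0.0703 to 0.176) and Egln3 (0.0877 to 0.135) in 0 of 6. With scaling to library size alone, the adjusted p was 0.0609 for G6pc3 and 0.0597 for Egln3.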

How the data were processed

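RNA-seq libraries of inguinal fat from 3 mutant and 3 Wt mice were analysed, with genotype and mouse number from the labels. The authors deposited 1 normalized signal value for each gene and mouse, which is CPM divided by a factor of 0.962 to 1.109. The submitters' processing notes name mm10, Bowtie2 2.1.0, RSEM 1.2.15 and edgeR, without their roles. Every value above 0 was a whole number of reads (within 0.02 of a read, 100.0% of values), and these reads, 19607423 to 24228381 per mouse, were recovered by dividing by the smallest step. The floor of 3 reads covers counting error only, and the intervals are those of limma and rest on the spread between mice.

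Genes passing filterByExpr (edgeR 4.0.16), applied to those reads with the authors' library sizes, were tested with limma 3.58.1 in R 4.3.3 on log2(value + 0.5), with an FDR of 0.05. Genotype was the only term. Fold changes on this scale understate those of low genes. Coordinates and exon lengths are from GENCODE M21 on GRCm38, the same build as mm10, in which 55480 identifiers were found. Promoter sequences are from RefSeq (GRCm38.p6), and shared sequence was counted in annotated transcripts as stretches of 50 bases, with a close copy defined as a gene sharing at least 100 of them.

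The glycolytic genes and all lists were chosen with earlier results of these data known. All 10 genes are named, with Ckm, Acta1, Pvalb and Myh4. In each other list every gene past the FDR is named, up to 6, or otherwise the 2 most abundant, and for Gapdh, Pgam2 and Eno3 the 3 genes with the nearest profile. Other names were added after their values were seen. Isoform shares at the hexokinase step are not reported here.

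Alternatives were 3 other scalings, edgeR's quasi-likelihood test and the Wald test of DESeq2 1.42.0 on the reads, 2 other filters, pseudocounts of 0.1 and 1, a replicate block and each mouse left out. Shares without division by length, the general median without the upstream Aldoa entry, and all alternatives for the pathway lists and muscle markers were chosen after seeing the data. Python 3.11.15, pandas 2.3.3 and matplotlib 3.10.9 were used for the rest.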

Additional observations from a re-analysis of the deposited data

How the results depend on the processing

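The counts of called genes depended on the setting. Of all genes tested, 1368 were called, 1250 with edgeR's quasi-likelihood test, 2118 with DESeq2's Wald test, 598 with at least 10 reads in every mouse, and 554 to 1005 when a mouse was left out. Of the 11 glycolytic entries 1 was called, 0 with at least 10 reads in every mouse (where the upstream Aldoa entry is not tested), and 0 to 1 when a mouse was left out. In the pathway lists 4 genes were called, 11 with DESeq2, 2 without a filter, 2 with at least 10 reads, and 1 to 2 when a mouse was left out. Of the muscle markers 1 was called, 2 with DESeq2 and 0 to 3 when a mouse was left out. The log2 fold changes reversed only when a mouse was left out. They ran from -0.10 to 0.30 for Aldoa, from -0.06 to 0.46 for Pfkm, from -0.06 to 0.51 for Pgam2 and from -0.22 to 0.12 for Pgk1 (0.12 without Wt mouse 1 and 0.05 without mutant mouse 2). The other 7 entries did not reverse in any alternative run, but without Wt mouse 3 Eno3 was at 0.00 and Hk2 and Pkm at 0.03. None of the 10 main entries passed the FDR in any alternative run, where Ldha came nearest (adjusted p of 0.0561 to 0.693). The medians of the muscle-biased genes ran from -0.06 to 0.51 and those of the general entries from 0.03 to 0.32 when a mouse was left out, and from 0.24 to 0.31 and 0.19 to 0.22 otherwise. Without division by exon length, mean shares in Wt and mutant mice were 69.8% and 72.5% for Pfkm, 97.2% and 98.1% for Pgam2, and 84.7% and 87.9% for Eno3. The causes were not tested.

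With mouse number as a replicate block, 4063 genes, 17 pathway genes and 1 glycolytic entry were called. Same-numbered mice are different animals. Their deviations from the group means correlated at 0.69, 0.057 and 0.56 for numbers 1, 2 and 3. Numbers 1 and 3 correlated best with their own number and number 2 did not. The labels name no pairing, so the numbers were not taken as pairs in the main fit. Whether same-numbered mice share a step of handling was not tested.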
